A study of Mus musculus with 22 samples.

Results

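Dorsal striatum was compared with ventral striatum in mice that had received saline, using 5 libraries of each region out of 22 libraries in the series. RNA was measured by bulk sequencing of total RNA from adult male C57BL/6J mice. The saline animals were yoked controls, infused with saline for 4 h a day over 14 days while their partners self-administered oxycodone, an opioid analgesic, at 0.25 mg/kg per infusion. All 10 libraries of the comparison come from saline animals, and oxycodone libraries of the same regions are used only beside them. RNA was extracted with the miRNeasy kit and libraries were made with a stranded total-RNA kit that depletes ribosomal RNA. A sixth saline ventral library, replicate 6, was left out because its marker genes look cortical. The 10 libraries were thus selected on measured levels of medium spiny neuron, striatal and cortical marker genes. The submitters give 5 to 6 animals per group but do not say which libraries share an animal, so p-values measure the spread between these libraries, which may in part be technical. Dorsal replicates 2 and 3 both carry the number 4 in their titles. Dorsal replicates 3 and 4 carry a suffix, P, whose meaning is not given. The descriptions place ventral replicates 1 to 4 on lane 1 and replicate 5 on lane 2, and give no lane for dorsal libraries.

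The striatum is the input station of the basal ganglia. Most of its neurons are GABAergic medium spiny neurons, which either carry the D1 dopamine receptor and form the direct pathway or carry the D2 receptor and form the indirect pathway. The dorsal part, the caudate-putamen, serves movement and habit, and the ventral part, the nucleus accumbens with the olfactory tubercle, serves motivation and reward. Both parts also contain cholinergic and GABAergic interneurons, glia and vessels, the dorsal part is crossed by bundles of myelinated axons, and it borders the lateral ventricle with its choroid plexus.

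The 2 regions were not counted alike. Ventral libraries held 9172185 to 9328005 counts and dorsal libraries 11314079 to 21921963, and genes with at least 1 count numbered 16977 to 17195 and 15622 to 16817. Among genes with 4 to 10 counts, the share with an even count lay between 57.6% and 60.8% for ventral and between 79.2% and 82.9% for dorsal libraries. Mitochondrial genes took 6.54% to 7.12% of ventral counts and 3.13% to 4.12% of dorsal counts. Region, the way of counting and any difference in preparation between the 2 sets therefore cannot be told apart in these files, and this holds for every difference given here. The mean level of the 20 genes listed for medium spiny neurons was 7.31 to 7.70 log2 CPM in the ventral and 8.64 to 8.79 in the dorsal libraries, against 5.07 in ventral replicate 6. Halving the dorsal counts left 7381 genes different, against 7227 with the counts as deposited. Scaling to library size largely removes such a halving, so this number does not show whether the way of counting matters.

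Of 14256 genes tested with the edgeR quasi-likelihood test, 7227 (50.7%) differed between the regions at an adjusted p under 0.05, 3889 higher in dorsal (27.3%) and 3338 higher in ventral (23.4%). In 5623 genes (39.4%) the 5 dorsal and the 5 ventral libraries did not overlap, with dorsal above in 2948 (20.7%) and ventral above in 2675 (18.8%). Since about every second gene differs, a test against a fold of 1.5 was used for the gene groups. It called 2167 genes (15.2%), 1207 higher in dorsal (8.47%) and 960 higher in ventral (6.73%), and these percentages are the background for each count of group members by this test. A gene described as higher or lower in a group count passed this stricter test. With ventral replicate 6 kept, the same test called 954 genes higher in dorsal (6.61%) and 856 higher in ventral (5.93%). Several pathway lists share members with the marker lists that judged this library, so their counts without it are in part a description. Log2 differences are dorsal over ventral throughout, and levels are TMM-scaled CPM (counts set to a common library size), which are comparable between libraries but not between genes of different length. In bulk tissue, fewer cells of a type and less RNA per cell cannot be told apart.

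Genes of the medium spiny neurons were the first group examined. They also served to judge ventral replicate 6, so their values without that library are a description and their tests are those with it kept. Rasgrp2, an activator of the small GTPase Rap1 (chromosome 19, 6399340 to 6415216 on GRCm38), had 93.6, 106, 80.4, 75 and 80.2 CPM in ventral replicates 1 to 5 and 595, 504, 570.4, 469 and 542 CPM in dorsal replicates 1 to 5. Every dorsal library was above every ventral one, and the level was 6.16-fold higher in dorsal (log2 2.62, SE 0.095; adjusted p = 1.78e-04 with ventral replicate 6 kept). Pde10a, the main phosphodiesterase of these neurons, averaged 809 ± 83.2 CPM in ventral and 2296 ± 163 CPM in dorsal (SD, n = 5 each), a log2 difference of 1.51. Of 20 genes listed for both kinds of medium spiny neuron, 10 were higher in dorsal and 0 higher in ventral with ventral replicate 6 kept, and 13 and 0 without it. The median of the 20 was 1.26, against 0.02 over all genes tested. The unmodified edgeR test called 14 of the 20 higher in dorsal and 0 in ventral with replicate 6 kept, where 23.6% and 22.3% of all genes were called, and 16 and 3 without it, where 27.3% and 23.4% were.

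Genes that separate the direct and indirect pathways differed less evenly. Drd1, the D1 dopamine receptor, had 172, 194, 165, 149 and 150.1 CPM in ventral and 504, 437, 478, 531 and 513 CPM in dorsal libraries. The groups did not overlap and dorsal was 2.97-fold higher (log2 1.57, SE 0.079; adjusted p = 0.0242 with replicate 6 kept). Drd2, the D2 receptor, had 136, 139.9, 112, 118 and 137 CPM in ventral and 154, 174, 169, 152 and 165 CPM in dorsal libraries. Its groups lay side by side without overlap, at a log2 difference of 0.34 (SE 0.076), and with replicate 6 kept the adjusted p was 0.444. Adora2a, the adenosine receptor of D2 neurons, averaged 105 ± 14.3 CPM in ventral and 388 ± 34.9 CPM in dorsal (SD, n = 5 each; log2 1.89). Gpr6, a receptor of the same neurons, had a log2 difference of 1.56 (SE 0.084). Chrm4, the M4 muscarinic receptor of D1 neurons, had 0.61, and Ebf1, a transcription factor of direct-pathway neurons, had 1.05.

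The peptide precursors that mark the same pathways were close to level. Penk, the enkephalin precursor of D2 neurons, had 1224, 1349, 979, 990.3 and 926 CPM in ventral and 1373, 1289, 1672, 1469.9 and 1479 CPM in dorsal libraries. The ranges overlapped, the log2 difference was 0.41 (SE 0.096), and with replicate 6 kept the adjusted p was 0.332. Tac1, the substance P precursor of D1 neurons, had log2 0.26 (SE 0.088; adjusted p = 0.484 with replicate 6 kept). Pdyn, the dynorphin precursor, had 94.1, 93.2, 77.3, 77.9 and 68.7 CPM in ventral and 80.6, 61.3, 62.1, 83.4 and 68.1 CPM in dorsal libraries, and these ranges overlapped (log2 -0.21, SE 0.11; adjusted p = 0.999 with replicate 6 kept). Among the 9 genes listed for D1 neurons only Ebf1 was past a fold of 1.5 with replicate 6 kept, and among 7 tested for D2 neurons none was (2 of each list without that library). The plot of striatal marker genes by library shows the gap for the shared markers and the near-level peptide and D2 receptor genes.

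**Figure D1:**
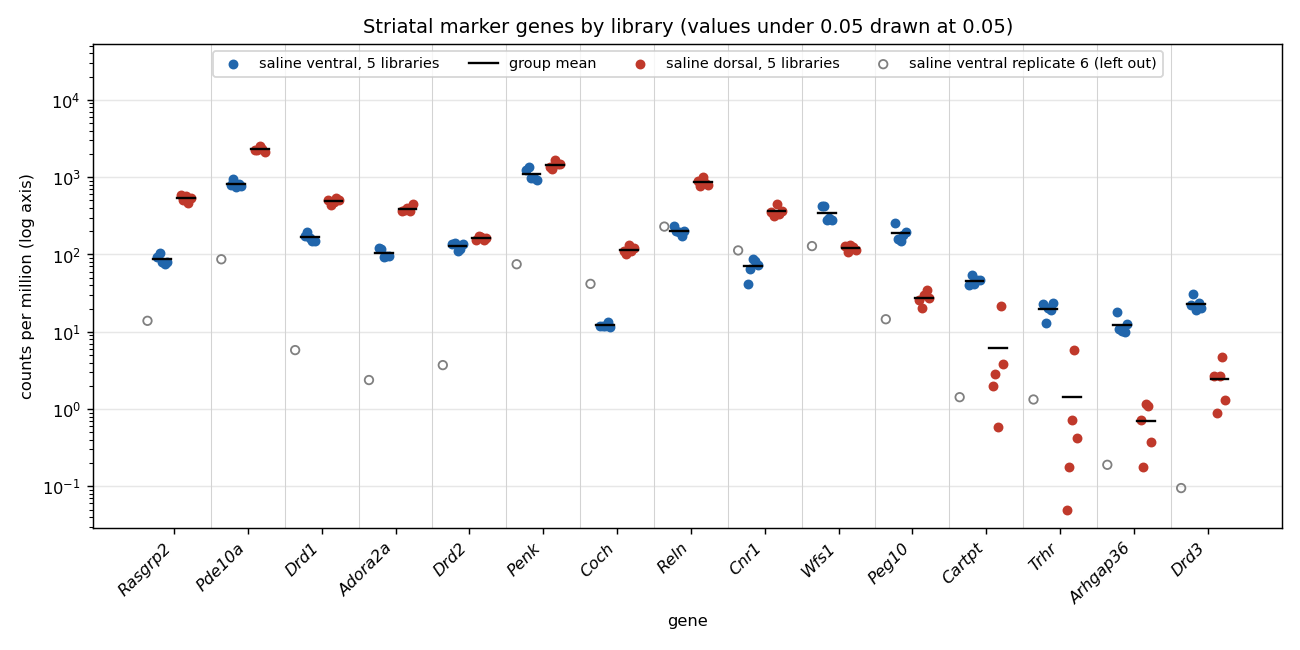
CPM of 15 striatal genes in each saline library, on a log axis. Blue and red points are the 5 ventral and 5 dorsal libraries, black bars are group means and open circles are ventral replicate 6; the groups are apart for Rasgrp2 (log2 2.62) and overlap for Penk (log2 0.41).

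Of 21 regional markers, 10 were past a fold of 1.5 in the direction their list names with ventral replicate 6 kept. All 5 genes listed for dorsal striatum were higher in dorsal, with and without ventral replicate 6, at a median of 2.36. Coch, a secreted extracellular-matrix protein, had 12, 12, 11.8, 13.2 and 11.5 CPM in ventral and 109, 102, 132, 109 and 121 CPM in dorsal libraries. The ventral values were tightly grouped and 9.5-fold lower (log2 3.25, SE 0.098; adjusted p = 6.26e-05 with replicate 6 kept). Reln, the secreted glycoprotein reelin, averaged 200.0 ± 21.1 CPM in ventral and 856 ± 92.5 CPM in dorsal, and Ido1, a tryptophan-degrading enzyme, 8.13 ± 1.49 and 57.3 ± 5.58 CPM (SD, n = 5 each). Cnr1, the CB1 cannabinoid receptor, had 42.1, 65.8, 87.8, 82.1 and 74.2 CPM in ventral and 351, 310.5, 445, 332 and 367 CPM in dorsal libraries, a log2 difference of 2.36 (SE 0.16; adjusted p = 2.70e-06 with replicate 6 kept).

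Of 16 genes listed for ventral striatum, 5 were higher in ventral and 1 in dorsal with ventral replicate 6 kept. Without it the counts were 11 and 1 and the median -1.93, a description only, since these genes served to judge that library. Arhgap36, a GTPase-activating protein gene (chromosome X, 49463945 to 49500244), had 18.1, 10.7, 10.3, 10.1 and 12.5 CPM in ventral and 0.717, 0.178, 1.16, 1.1 and 0.377 CPM in dorsal libraries. It was 16.9-fold higher in ventral (log2 -4.08, SE 0.37; adjusted p = 0.00127 with replicate 6 kept). Peg10, an imprinted gene derived from a retrotransposon, had 254, 159.6, 149.6, 176 and 197 CPM in ventral and 25.6, 20.4, 29.9, 35 and 27.7 CPM in dorsal libraries, which did not approach each other (log2 -2.75, SE 0.15). Wfs1, an endoplasmic reticulum membrane protein, averaged 342 ± 75.3 CPM in ventral and 122 ± 10.5 CPM in dorsal (SD, n = 5 each; log2 -1.49). Zcchc12, a zinc-finger coactivator, had a log2 difference of -1.36 (SE 0.096), with an adjusted p of 0.0635 once replicate 6 was kept. Crym, a thyroid hormone-binding protein, had 238, 206, 189, 153 and 156 CPM in ventral and 139, 135, 142, 166 and 153 CPM in dorsal libraries, which overlapped (log2 -0.36; adjusted p = 0.692 with replicate 6 kept). Tmem158, a transmembrane protein listed for ventral striatum, was higher in dorsal instead, with 6.67, 12.9, 9.46, 4.22 and 12.8 CPM in ventral and 107, 124, 62.6, 78.5 and 122 CPM in dorsal libraries (log2 3.42, SE 0.28; adjusted p = 9.03e-06 with replicate 6 kept). Oprk1, also listed for ventral striatum, had every dorsal library above every ventral one (log2 0.76), with an edgeR adjusted p of 0.0753 with replicate 6 kept.

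Genes of the islands of Calleja, granule cell clusters of the olfactory tubercle, were split. Drd3, the D3 dopamine receptor, had 22, 30.9, 18.9, 23.7 and 20.5 CPM in ventral and 2.69, 0.89, 2.68, 4.71 and 1.32 CPM in dorsal libraries, a 9.2-fold difference toward ventral (log2 -3.20, SE 0.32; adjusted p = 2.73e-07). Rreb1, a zinc-finger transcription factor, averaged 128 ± 14.7 CPM in ventral and 20.2 ± 6.87 CPM in dorsal (SD, n = 5 each; log2 -2.66). Of the 4 genes listed, 2 were higher in ventral and 1 in dorsal. Genes of the striosomes, patch-like compartments within the striatum, and of the surrounding matrix also went both ways. Oprm1 was higher in ventral and Kremen1 (log2 1.45) in dorsal, the only 2 of 6 striosome genes past a fold of 1.5, and with replicate 6 kept Oprm1 was not. Among 5 matrix genes, Id4 (log2 1.65) and Calb1 (0.86) were higher in dorsal and Gda (log2 -0.83) in ventral (1 and 1 with replicate 6 kept).

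Neuropeptide genes leaned toward ventral striatum. Of 25 precursors listed, 16 were tested, and 5 were higher in ventral and 1 in dorsal. With replicate 6 kept the counts were 3 and 1. Cartpt and Nts are also ventral striatum markers that served to judge that library, and neither was past a fold of 1.5 with it kept. The median of the 16 precursors tested was -0.39. Cartpt, the precursor of the CART peptides, had 40.1, 54, 41.4, 46.6 and 46.8 CPM in ventral libraries and 1.97, 2.85, 0.579, 21.4 and 3.86 CPM in dorsal ones. Dorsal replicate 4 stood far above the other dorsal libraries, and the log2 difference was -2.81 with it (SE 0.75; adjusted p = 0.0411 with ventral replicate 6 kept) and -4.25 without it. Nts, the neurotensin precursor, had 25.5, 28.2, 21.7, 31.3 and 30.9 CPM in ventral and 2.15, 0.89, 4.05, 8.83 and 5.84 CPM in dorsal libraries, again with dorsal replicate 4 the highest of its group (log2 -2.59, SE 0.38). Tac2, the neurokinin B precursor, had 14.3, 7.05, 12.5, 11.1 and 13.9 CPM in ventral and 0.179, 1.96, 1.01, 0.732 and 1.18 CPM in dorsal libraries. Its groups did not overlap, at a log2 difference of -3.54 (SE 0.38; adjusted p = 7.24e-07). Sst, the somatostatin precursor of a class of interneurons, averaged 209.9 ± 13.3 CPM in ventral and 102 ± 9.41 CPM in dorsal (SD, n = 5 each). Pnoc, the nociceptin precursor, was the fifth, with 2.77 ± 0.896 CPM in ventral and 0.214 ± 0.252 CPM in dorsal; its log2 difference was -3.42 and -4.17 without dorsal replicate 4. Pomc, the precursor of beta-endorphin and melanocortins, was the 1 precursor higher in dorsal, at 2.65 ± 0.873 CPM in ventral and 7.14 ± 2.97 CPM in dorsal (log2 1.42, SE 0.33). It was also 1 of the 2 pituitary genes tested.

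Opioid receptor genes differed in opposite directions. Oprm1, the mu-opioid receptor at which oxycodone acts, had 51.1, 36.7, 37.6, 44.7 and 44.4 CPM in ventral and 21.4, 12.7, 19.8, 23.4 and 18.5 CPM in dorsal libraries. Every ventral library was above every dorsal one, at a log2 difference of -1.16 (SE 0.15; adjusted p = 5.02e-06, and 0.0457 with ventral replicate 6 kept). Oprd1, the delta-opioid receptor, had 6.46, 10.9, 7.83, 5.62 and 7.04 CPM in ventral and 27.1, 17.9, 23.7, 21 and 24.7 CPM in dorsal libraries, the reverse order without overlap (log2 1.59, SE 0.18; adjusted p = 1.61e-06). Oprk1, the kappa-opioid receptor, had 19.7, 18.4, 18.8, 14.8 and 17.4 CPM in ventral and 46.9, 21.9, 26.5, 30.0 and 26.1 CPM in dorsal libraries, at log2 0.76 (SE 0.18), with an adjusted p of 0.0753 once replicate 6 was kept. Of 28 neuropeptide receptor genes tested, 1, Oprd1, was higher in dorsal and 5 were higher in ventral, and with replicate 6 kept 1 and 2. Trhr, the thyrotropin-releasing hormone receptor, had 22.8, 12.8, 20.5, 19 and 23.4 CPM in ventral and 0, 0.178, 0.723, 5.77 and 0.424 CPM in dorsal libraries. Dorsal replicate 4 again stood above its group, and the log2 difference was -3.62 with it (SE 0.82; adjusted p = 0.0154 with ventral replicate 6 kept) and -5.74 without it. Npy2r, a neuropeptide Y receptor, had a log2 difference of -1.93 (SE 0.27), and Calcr, the calcitonin receptor, and Hcrtr2, an orexin receptor, were the other 2, at -2.37 and -1.74. Oprk1, Trhr and Calcr are also listed ventral striatum markers that served to judge replicate 6.

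Among 37 receptors for monoamines, acetylcholine, adenosine and cannabinoids, 6 were higher in dorsal and 4 in ventral, at a median of 0.12; with replicate 6 kept both counts were 2. Drd1, Adora2a and Cnr1 were described above, and the adrenergic receptors Adra2c (1.72) and Adrb1 (1.43) were also among the dorsal genes. Drd1, Adora2a and Cnr1 served to judge replicate 6, so their calls without it are a description. With it kept, edgeR's adjusted p against a fold of 1.5 was 0.108 for Drd1, 0.0615 for Adora2a and 2.98e-05 for Cnr1. Drd3, the muscarinic receptor Chrm5 (-2.55) and the serotonin receptors Htr1a (-2.45) and Htr2c (-1.72) were higher in ventral. Of the genes for dopamine handling, Slc18a2, the vesicular monoamine transporter, was higher in ventral at 6.81 ± 1.64 against 2.53 ± 0.897 CPM (SD, n = 5 each; log2 -1.40). Th and Ddc, the 2 enzymes of dopamine synthesis, had log2 differences of 0.33 (SE 0.18; adjusted p = 0.147) and -0.31 (SE 0.18; adjusted p = 0.166).

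Subunits of inhibitory receptors were divided by subunit. Of 16 GABA-A and glycine receptor genes tested, 8 were higher in ventral and 2 in dorsal, at a median of -0.77; the counts were 5 and 2 with replicate 6 kept. The 2 were Gabrd and Gabra4, which encode the delta and alpha 4 subunits of extrasynaptic receptors. Gabrd had 86.4, 91.2, 67.6, 72.7 and 65.8 CPM in ventral and 275, 242, 239.9, 208 and 249 CPM in dorsal libraries (log2 1.66, SE 0.098; adjusted p = 7.52e-10), and Gabra4 a log2 difference of 1.23 (SE 0.086). Gabrg1, the gamma 1 subunit, had 54.8, 49.8, 49.8, 52.7 and 49.2 CPM in ventral and 17.5, 23.9, 18.7, 25.5 and 22.1 CPM in dorsal libraries (log2 -1.25, SE 0.11; adjusted p = 1.01e-07). Other ventral subunit genes ran from Gabrq (-2.38), Glra3 (-1.74) and Glra2 (-1.60) through Gabra3 (-1.12) and Gabra5 (-0.96) to Gabrg3 (-0.89). Glutamate receptor subunits were nearly balanced, with 3 of 25 higher in dorsal, 2 in ventral and a median of 0.03. Grin3a, an NMDA receptor subunit, averaged 70.7 ± 9.72 CPM in ventral and 29.4 ± 4.92 CPM in dorsal (SD, n = 5 each; log2 -1.27). Grin2a, another NMDA receptor subunit, was higher in dorsal at log2 0.84 (SE 0.082), with an adjusted p of 0.121 once replicate 6 was kept.

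Intracellular signalling and potassium channel genes went both ways, with more of them past a fold of 1.5 toward dorsal. Of 36 genes of cAMP and G protein signalling, 5 were higher in dorsal and 3 in ventral with replicate 6 kept (10 and 3 without it). Their median was 0.10, against 0.02 over all genes tested. Adcy5, Gnal, Pde10a, Pde1b, Ppp1r1b and Rgs9 of this list are also medium spiny neuron markers that served to judge replicate 6. Rgs4, which speeds the shut-off of G proteins, had 161, 167, 167, 168 and 148 CPM in ventral and 511, 547, 497, 539 and 575 CPM in dorsal libraries (log2 1.72, SE 0.062; adjusted p = 2.81e-12). Gnb5, the G protein beta subunit that pairs with RGS9, had 124, 127, 113, 111 and 105 CPM in ventral and 432, 338, 370.0, 404 and 367 CPM in dorsal libraries (log2 1.72, SE 0.077). Adcy5 (1.49), the main adenylyl cyclase of striatum, and the phosphodiesterase Pde7b (1.28) were on the dorsal side as well, while Rgs16 (-2.14), Pde1a (-1.94) and Adcy8 (-1.40) were on the ventral side. Of 45 potassium channel genes, 11 were higher in dorsal and 6 in ventral (9 and 4 with replicate 6 kept), at a median of 0.18. Kcnab1, an auxiliary subunit of voltage-gated channels, averaged 120.0 ± 6.82 CPM in ventral and 479 ± 45 CPM in dorsal, and Kcnk1, a leak potassium channel, 32.2 ± 4.75 and 141 ± 3.99 CPM (SD, n = 5 each). Their log2 differences were 2.00 (SE 0.073) and 2.13 (SE 0.096), and that of Kcnh3, a voltage-gated channel of forebrain, was 1.35 (SE 0.085). Kcnip1 (-2.01), Kcnc4 (-1.74) and Kcnd3 (-1.24), which form or regulate rapidly inactivating potassium currents, were higher in ventral.

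Cell adhesion and axon guidance genes leaned toward ventral. Of 24 cadherins and protocadherins outside the gene clusters, 8 were higher in ventral and 0 in dorsal (7 and 0 with replicate 6 kept), at a median of -0.57. By the unmodified edgeR test 19 of the 24 were higher in ventral and 2 in dorsal, where 23.4% and 27.3% of all genes were, and with offsets for GC content and length 14 and 2. Pcdh19, a delta protocadherin, had 63.2, 64.7, 73.9, 75.9 and 83.2 CPM in ventral and 9.95, 16.3, 17.6, 24.3 and 19.9 CPM in dorsal libraries (log2 -2.02, SE 0.17; adjusted p = 3.64e-08). Cdh2, N-cadherin, averaged 193 ± 9.68 CPM in ventral and 88.9 ± 10.1 CPM in dorsal, and Pcdh15 87.3 ± 6.25 and 29.6 ± 3.69 CPM (SD, n = 5 each). Of 51 guidance genes, 15 were higher in ventral and 5 in dorsal (14 and 2 with replicate 6 kept), at a median of -0.41. Plxna1 and Plxnd1, both receptors for semaphorins, were on opposite sides. Plxna1 had 110.4, 140.2, 126, 151 and 164 CPM in ventral and 28.3, 32.8, 27.2, 38.1 and 23.5 CPM in dorsal libraries (log2 -2.20, SE 0.13; adjusted p = 7.59e-10), and Plxnd1 91.7, 76.6, 69.9, 64.8 and 69.1 CPM in ventral and 262, 266, 292, 206 and 251 CPM in dorsal libraries (log2 1.78, SE 0.10; adjusted p = 5.92e-10). Ephb6, an Eph receptor without kinase activity, was higher in dorsal (log2 1.81, SE 0.11; adjusted p = 0.0456 with replicate 6 kept). The ventral side also held Nrp2 (-2.84), Unc5d (-2.21), Slit2 (-1.99), Slit1 (-1.97) and Ntn1 (-1.79), which are receptors or ligands of axon guidance.

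Of 62 regional transcription factors, 16 were higher in ventral and 6 in dorsal (13 and 5 with replicate 6 kept), at a median of -0.33. Tshz2, a teashirt zinc-finger factor, had 76.7, 83.7, 61.5, 79.2 and 74.5 CPM in ventral and 11.8, 18.3, 21.5, 17.7 and 9.47 CPM in dorsal libraries (log2 -2.26, SE 0.18; adjusted p = 1.71e-08). Most of its sampled sequence words, 96.7%, also occur in another annotated gene, so the share of its reads that was counted is uncertain. Retinoic acid genes leaned the other way, with 4 of 15 higher in dorsal and 0 in ventral (3 and 1 with replicate 6 kept), at a median of 0.32. Aldh1a1, an enzyme that makes retinoic acid, had 15, 17.7, 16, 14.9 and 12.6 CPM in ventral and 71.1, 56.3, 63.4, 59.8 and 57.2 CPM in dorsal libraries (log2 2.01, SE 0.11; adjusted p = 4.03e-10). Rxrg, a retinoid receptor, had 71.1, 76.4, 71, 81.8 and 76.6 CPM in ventral and 224, 169, 208, 216 and 215 CPM in dorsal libraries (log2 1.45, SE 0.081), and its partner Rarb, also a medium spiny neuron marker, a log2 difference of 0.51 (adjusted p = 0.178 with replicate 6 kept).

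Imprinted genes, expressed from 1 parental allele, were mostly higher in ventral. Of 22 tested, 12 were higher in ventral and 0 in dorsal (8 and 0 with replicate 6 kept), at a median of -1.08. Dlk1, Peg10 and Nnat of this list are also ventral striatum markers. Zim1, a zinc-finger gene (chromosome 7, 6671269 to 6696450), had 14.3, 9.78, 13.2, 16.1 and 19 CPM in ventral and 0.359, 1.25, 1.59, 1.51 and 0.895 CPM in dorsal libraries (log2 -3.65, SE 0.31; adjusted p = 4.56e-08). Its neighbours Peg3, a zinc-finger gene (chromosome 7, 6703892 to 6730431), and Usp29, a ubiquitin peptidase gene (chromosome 7, 6730578 to 6967219), had smaller differences in the same direction. Peg3 had 1114, 1166, 1130.5, 1229.6 and 1199 CPM in ventral and 555, 481, 619, 669 and 523 CPM in dorsal libraries, a log2 difference of -1.04 (SE 0.078), and Usp29 had -1.12 (SE 0.088). Magel2, a regulator of protein ubiquitination, had 16.6, 12.2, 15.7, 20.5 and 24.1 CPM in ventral and 1.26, 1.07, 2.31, 3.16 and 1.79 CPM in dorsal libraries (log2 -3.17, SE 0.28; adjusted p = 8.03e-08). Dlk1, a transmembrane protein related to Notch ligands, had 27.4, 12, 16.5, 12.5 and 21.4 CPM in ventral and 0.897, 2.05, 2.46, 2.47 and 1.98 CPM in dorsal libraries (log2 -3.16, SE 0.29; adjusted p = 0.00372 with replicate 6 kept). The plot of list members sets these groups beside each other.

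**Figure D2:**
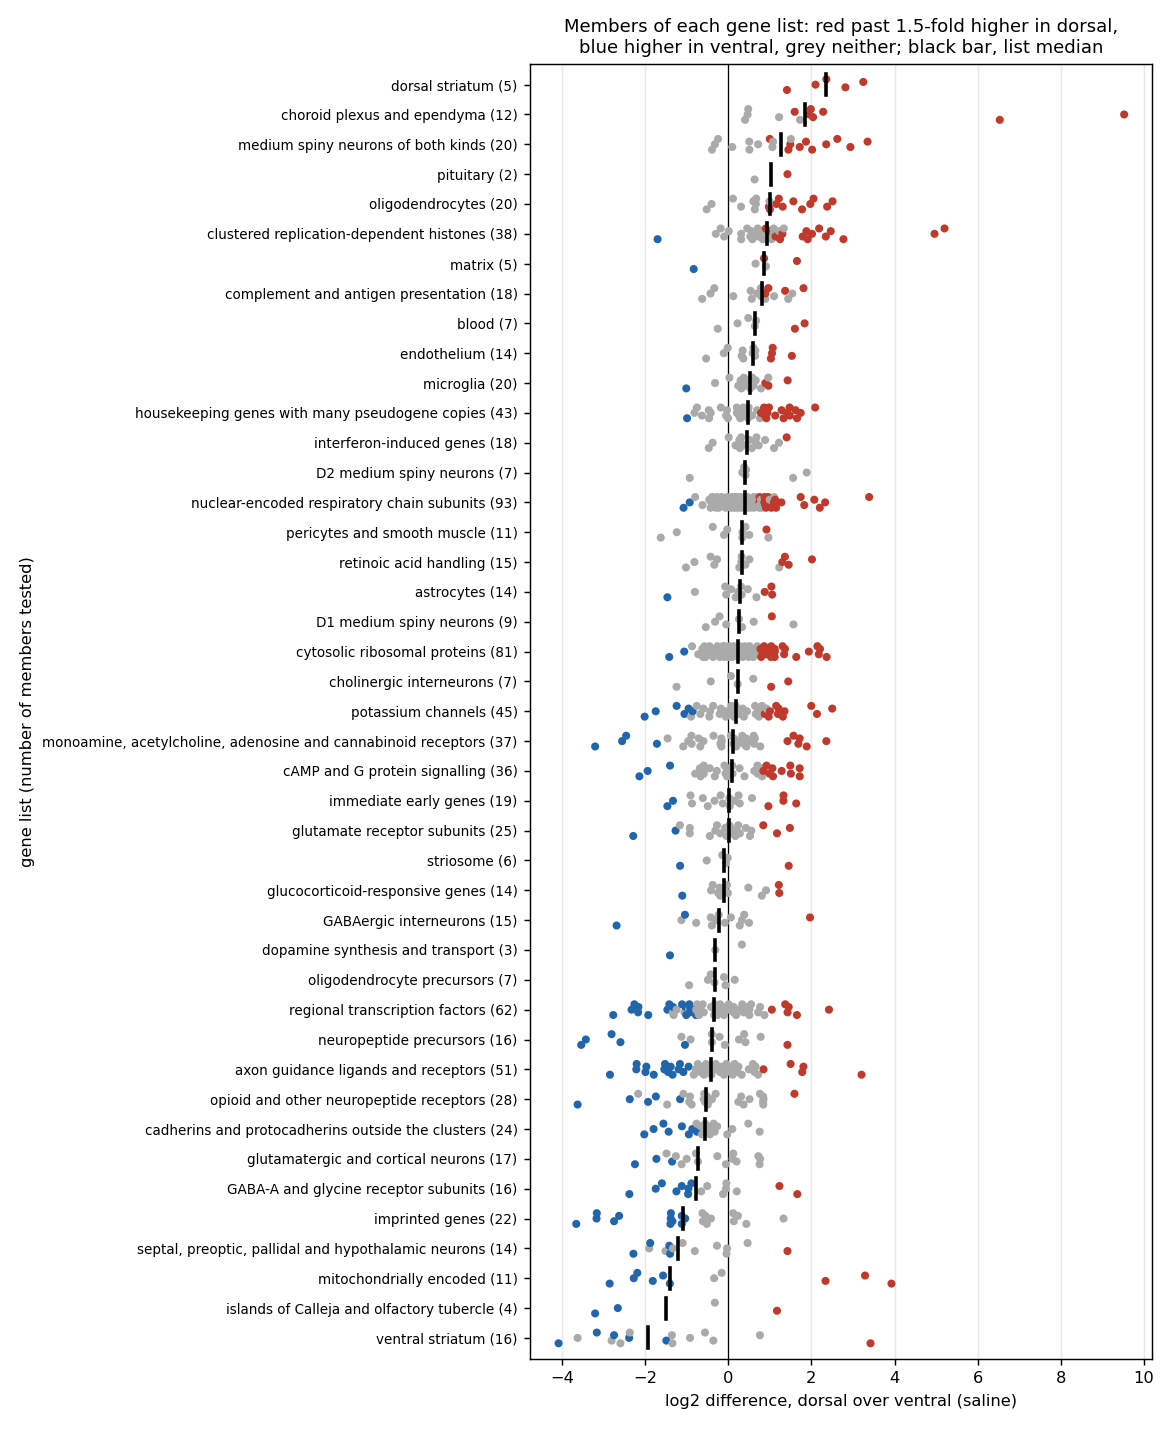
Log2 difference, dorsal over ventral, of every tested member of each gene list, ordered by list median. Red and blue points are past a fold of 1.5 toward dorsal or ventral (tested with ventral replicate 6 kept for the medium spiny neuron, dorsal striatum, ventral striatum and cortical lists), grey points are not, and bars are medians, from -1.93 for ventral striatum to 2.36 for dorsal striatum. The test goes by list, so a gene on several lists, such as Drd1, can be coloured in one row and grey in another. Keeping replicate 6 tilts the cortical list toward ventral.

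Interneuron genes were mixed, with 2 of 7 cholinergic genes higher in dorsal and 0 in ventral, and 1 of 15 GABAergic genes higher in dorsal and 2 in ventral (0 and 0, and 0 and 2, with replicate 6 kept). Chat, the acetylcholine-synthesising enzyme of cholinergic interneurons, had 22.4, 32.5, 17.1, 25.3 and 19 CPM in ventral and 52.4, 39.8, 54.1, 48.2 and 43.4 CPM in dorsal libraries (log2 1.03, SE 0.15; adjusted p = 2.37e-05). Lhx8, a transcription factor of the same cells, had 13.1 ± 4.34 CPM in ventral and 5.47 ± 2.54 CPM in dorsal (SD, n = 5 each), a log2 difference of -1.24 with an adjusted p of 0.0041, and 0.242 with replicate 6 kept. Pvalb, parvalbumin of fast-spiking interneurons, had 3.18, 9.88, 4.02, 6.16 and 3.2 CPM in ventral and 18.9, 19.4, 21.8, 18.6 and 24.7 CPM in dorsal libraries. It was higher in dorsal (log2 1.97, SE 0.26; adjusted p = 7.45e-06), but with replicate 6 kept the adjusted p was 0.06. Calb2, calretinin of another interneuron class, had 20.5, 22, 31.7, 29.4 and 26.8 CPM in ventral and 1.08, 7.12, 2.24, 4.8 and 4.81 CPM in dorsal libraries, the opposite order (log2 -2.69, SE 0.32; adjusted p = 2.56e-06).

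Neuronal genes of neighbouring structures differed among the ventral libraries themselves. Slc17a7, the vesicular glutamate transporter of cortical neurons (a gene picked once its levels were known), had 37.5, 57.8, 282, 221 and 211 CPM in ventral and 131, 93.1, 48.2, 89 and 44.9 CPM in dorsal libraries. Ventral replicates 3 to 5 were far above replicates 1 and 2, the groups overlapped, and the adjusted p was 0.0675 with ventral replicate 6 kept. The listed glutamatergic and cortical genes had a mean level from 3.41 to 4.60 log2 CPM among the ventral and from 3.34 to 3.81 among the dorsal libraries, against 6.73 in ventral replicate 6. Cux2 and Rasgrf2, genes of upper-layer cortical neurons, had log2 differences of -1.73 and -1.35, and 3 of 17 members, with Slc17a6, were higher in ventral with replicate 6 kept. The list median was -0.73 without replicate 6 and -1.91 with it. The high cortical levels of replicate 6 move these genes toward ventral when it is kept, so that count is tilted and does not test the regions. Of 14 septal, preoptic, pallidal and hypothalamic genes, 4 were higher in ventral and 1, Pomc, in dorsal (2 and 1 with replicate 6 kept), at a median of -1.21. Baiap3, which acts in dense-core vesicle release, had 176, 144, 143, 175 and 189 CPM in ventral and 41.2, 32.9, 24.4, 42.1 and 29.7 CPM in dorsal libraries (log2 -2.28, SE 0.13; adjusted p = 7.52e-10, and 0.0991 against a fold of 1.5 with replicate 6 kept). Zic1, a zinc-finger factor of septal neurons, had 18.1, 27.8, 42.1, 49.2 and 45.1 CPM in ventral and 11.5, 18.4, 9.76, 12.9 and 15.7 CPM in dorsal libraries, and Trpc4, a cation channel, 32.1, 29.4, 55.3, 64.7 and 63.3 and 17, 25.3, 17.4, 15.3 and 18.2 CPM. Both were highest in ventral replicates 3 to 5, the libraries with high Slc17a7, and their log2 differences were -1.42 and -1.40. The part of admixed cortical or septal tissue in the differences between regions was not tested.

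Oligodendrocyte genes were higher in dorsal striatum. Of 20 listed, 11 were higher in dorsal and 0 in ventral (10 and 0 with replicate 6 kept), at a median of 1.00. Mbp, myelin basic protein, had 534, 438, 495, 408 and 487 CPM in ventral and 1359.8, 1606, 1326, 1186 and 1522 CPM in dorsal libraries (log2 1.57, SE 0.086; adjusted p = 3.74e-10). Cldn11, the tight-junction protein of myelin, had 45, 35.5, 36.8, 28.3 and 34 CPM in ventral and 172, 231, 192, 148 and 192 CPM in dorsal libraries (log2 2.38, SE 0.12), and Mal, a myelin proteolipid, a log2 difference of 2.05 (SE 0.13). Genes of oligodendrocyte precursors did not share this pattern, with 0 of 7 past a fold of 1.5 either way; at the unmodified threshold edgeR called 3 of the 7 higher in ventral and 0 in dorsal, where 23.4% and 27.3% of all genes were. Pdgfra, the growth factor receptor of the precursors, averaged 73 ± 1.91 CPM in ventral and 52 ± 4.71 CPM in dorsal (SD, n = 5 each; log2 -0.49, adjusted p = 9.12e-05).

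Astrocyte, microglial and vascular genes had smaller differences. The unmodified edgeR test called 7 of 14 astrocyte, 14 of 20 microglial and 10 of 14 endothelial genes toward dorsal, and 2, 2 and 1 toward ventral. Of all genes, 27.3% and 23.4% were called. With replicate 6 kept the counts were 4, 12 and 7 toward dorsal and 1, 2 and 1 toward ventral, against 23.6% and 22.3% of all genes. Past a fold of 1.5, 3 of 14 astrocyte genes were higher in dorsal and 1 in ventral (1 and 1 with replicate 6 kept), at a median of 0.27. Aqp4, the water channel of astrocyte endfeet, averaged 27.9 ± 4.44 CPM in ventral and 57.2 ± 7.13 CPM in dorsal (SD, n = 5 each; log2 1.04). Of 20 microglial genes, 3 were higher in dorsal and 1 in ventral (1 and 1 with replicate 6 kept), at a median of 0.52. Trem2, a lipid-sensing receptor, had 9.42, 7.78, 7.72, 8.65 and 8.00 CPM in ventral and 27.4, 23.5, 22.7, 16.9 and 21.8 CPM in dorsal libraries (log2 1.43, SE 0.16; adjusted p = 7.68e-07). Of 18 complement and antigen presentation genes, 4 were higher in dorsal and 0 in ventral (1 and 0 with replicate 6 kept). The unmodified edgeR test called 10 of this list toward dorsal and 1 toward ventral (7 and 1 with replicate 6 kept). C1qa and C1qc of that list had log2 differences of 0.89 (SE 0.10) and 0.97 (SE 0.10), and with replicate 6 kept edgeR's adjusted p against a fold of 1.5 was 0.354 and 0.129. Of 14 endothelial genes, 4 were higher in dorsal and 0 in ventral (2 and 0 with replicate 6 kept), Cldn5, the tight-junction protein of the blood-brain barrier, among them (log2 1.53, SE 0.19), and of 11 pericyte and smooth muscle genes 1, Rgs5 (0.92), was higher in dorsal (0 with replicate 6 kept). Blood genes were higher in dorsal for 2 of 7 (0 with replicate 6 kept). Hbb-bs, a beta-globin of red blood cells, had 153, 112, 135, 60.7 and 98.8 CPM in ventral and 449, 320.2, 259, 322 and 348 CPM in dorsal libraries, at log2 1.60 and an adjusted p of 1.40e-04, or 0.0688 with replicate 6 kept. The alpha-globin Hba-a1 went with it (log2 1.84), and the part of residual blood in the differences was not tested.

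Several choroid plexus genes were far higher in dorsal libraries. Ttr, transthyretin, the thyroid hormone carrier made by the choroid plexus, had 5.72, 3.15, 1.41, 1.51 and 3.84 CPM in ventral and 2022, 3495, 341, 2258 and 3446 CPM in dorsal libraries. Dorsal replicate 3 was well below the other dorsal libraries and still above every ventral one, and the log2 difference was 9.52 (SE 0.85; adjusted p = 2.01e-05). Folr1, a folate receptor of the same epithelium, had 0.106, 0.105, 0.109, 0.108 and 0.213 CPM in ventral and 3.86, 16.6, 2.1, 17.4 and 23.4 CPM in dorsal libraries (log2 6.53, SE 0.77; adjusted p = 3.43e-06), and its ventral values are at about 1 to 2 counts a library. Slc4a5, a bicarbonate transporter, had 0.318, 0.105, 0.109, 0.324 and 0.427 CPM in ventral and 8.43, 14.8, 3.11, 11.6 and 22.9 CPM in dorsal libraries (log2 5.52, SE 0.55; adjusted p = 2.93e-07). Kcnj13, a potassium channel of the epithelium, had 9.00, 5.47, 3.59, 4.65 and 5.55 CPM in ventral and 14, 24.4, 9.04, 26.5 and 35.1 CPM in dorsal libraries (log2 1.95). Ttr, Folr1, Slc4a5, Kcnj13 and Tmem72 (log2 4.93) were all lowest of the dorsal libraries in replicate 3. Of 12 choroid plexus and ependymal genes tested, 7 were higher in dorsal and 0 in ventral (6 and 0 with replicate 6 kept), and the list's mean level ran from 1.23 to 1.94 log2 CPM in ventral and from 2.80 to 4.61 in dorsal libraries. The plot of glial, vascular, blood and choroid plexus genes shows this spread.

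**Figure D3:**
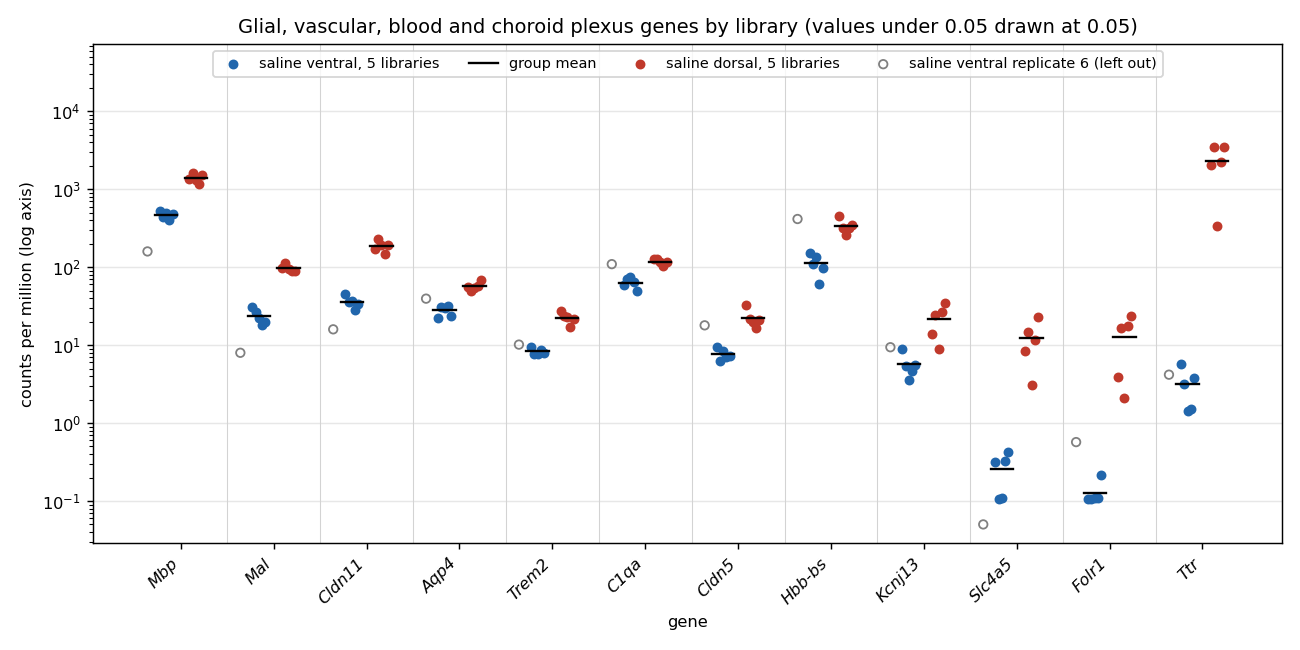
CPM of 12 genes of oligodendrocytes, astrocytes, microglia, endothelium, blood and choroid plexus in each saline library, on a log axis. Blue and red points are the 5 ventral and 5 dorsal libraries, bars are means and open circles are ventral replicate 6; dorsal values lie above those of ventral replicates 1 to 5 for all 12 genes, with the widest spread for Ttr, 341 to 3495 CPM.

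Several of the largest differences toward ventral were in genes without a list. Ndst4, a heparan sulfate-modifying enzyme, had 30.4, 55.7, 127, 119 and 90.6 CPM in ventral and 1.97, 2.23, 6.37, 7.32 and 6.92 CPM in dorsal libraries (log2 -4.01, SE 0.50; adjusted p = 9.99e-05). Frzb, a secreted Wnt inhibitor, had 1.69, 4.1, 8.48, 9.94 and 8.43 CPM in ventral and 0.179, 0.178, 1.16, 0.412 and 0.942 CPM in dorsal libraries (log2 -3.43, SE 0.55). Both genes were higher in ventral replicates 3 to 5 than in replicates 1 and 2, as Slc17a7 was. Tcerg1l, a gene related to a transcription elongation regulator, had an even level across ventral libraries, 37.4, 46.4, 35.8, 39.1 and 38 CPM, against 3.77, 4.98, 2.39, 6.77 and 3.3 CPM in dorsal ones (log2 -3.19, SE 0.21; adjusted p = 2.72e-09). Irs4, an insulin receptor substrate, had a log2 difference of -3.45 (SE 0.34) and Tmem200a, a transmembrane protein gene, -3.49 (SE 0.32). Stac, a scaffold of calcium channels, had -3.98, or -5.35 without dorsal replicate 4. Cartpt, Trhr, Nts, Drd3, Npy2r, Stac and Tcerg1l all had their highest dorsal value in replicate 4.

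On the dorsal side, Clspn, claspin of the DNA replication checkpoint, had 3.07, 1.89, 3.15, 2.16 and 2.56 CPM in ventral and 38.8, 23.4, 40.2, 31.4 and 34 CPM in dorsal libraries (log2 3.70, SE 0.20; adjusted p = 2.41e-10). Gpx6, a glutathione peroxidase, had a log2 difference of 3.68 (SE 0.40), and Calml4, a calmodulin-like gene, 3.79 (SE 0.54). Among immediate early genes, transcribed within minutes of neuronal activity, 4 of 19 were higher in dorsal and 2 in ventral (1 and 2 with replicate 6 kept). Egr1, a zinc-finger factor, had 69.3, 79.9, 83.1, 91.4 and 96 CPM in ventral and 33.2, 48.3, 28.7, 28.5 and 29.3 CPM in dorsal libraries (log2 -1.33, SE 0.14; adjusted p = 5.04e-07), while Homer1, a postsynaptic scaffold, averaged 145 ± 7.27 CPM in ventral and 284 ± 18.8 CPM in dorsal (SD, n = 5 each; log2 0.97). Counts per gene do not separate the transcripts of Homer1, so its value covers all of them. Of 14 glucocorticoid-responsive genes, Klf9 (log2 1.23) and Nfkbia (1.22) were higher in dorsal and Mt1, a metallothionein, in ventral (log2 -1.11). Of 18 interferon-induced genes, 1, Ifi27, was past a fold of 1.5 (log2 1.40).

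Genes whose sequence is shared with other genes were more often called toward dorsal than toward ventral. Of 648 tested genes with at least 50% of their 31-base words in other annotated genes, 108 were past a fold of 1.5 toward dorsal and 18 toward ventral, while among 6933 genes with no shared word the counts were 540 and 521. The 5 genes shown here with a stretch of coding sequence were chosen after their values were seen, because in these stretches a read of the gene reads the same, or nearly so, as its copy. The sequences were taken from GENCODE M21 transcripts on GRCm38, in the direction of transcription and in lower case, with a capital where gene and copy differ. For mt-Co3, Sec61g, Tmed2 and Hist1h4m the 60 bases of gene and copy are the same and are printed once, and for Sinhcaf both are given.
mt-Co3 and Gm28437: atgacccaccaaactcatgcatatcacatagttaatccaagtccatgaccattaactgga
Sec61g and Gm10177: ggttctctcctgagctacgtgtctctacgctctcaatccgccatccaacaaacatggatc
Tmed2 and Gm10698: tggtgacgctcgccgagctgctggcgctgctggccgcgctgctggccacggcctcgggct
Hist1h4m and Hist1h4n: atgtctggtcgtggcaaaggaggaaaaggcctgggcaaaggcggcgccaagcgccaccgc
Sinhcaf: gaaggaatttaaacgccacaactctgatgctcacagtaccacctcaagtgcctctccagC
Gm6087: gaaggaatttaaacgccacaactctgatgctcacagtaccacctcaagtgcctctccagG
mt-Co3, a mitochondrially encoded cytochrome oxidase subunit (chromosome M, 8607 to 9390), has 99.9% of its coding words in the nuclear pseudogene Gm28437 (chromosome 1, 24613189 to 24613971). Sec61g, a subunit of the protein translocation channel (chromosome 11, 16500530 to 16508484), has 84.1% in Gm10177 (chromosome 9, 37252922 to 37253365), a processed pseudogene. Tmed2, a cargo receptor of the secretory pathway (chromosome 5, 124540695 to 124550506), has 99.8% in Gm10698 (chromosome 9, 33728247 to 33728850), also a processed pseudogene. Hist1h4m, a histone H4 gene (chromosome 13, 21811746 to 21812147), has all of them in its neighbour Hist1h4n (chromosome 13, 21831767 to 21832196). Sinhcaf, a subunit of a histone deacetylase complex (chromosome 6, 148921035 to 148946467), has 95.1% in Gm6087 (chromosome 14, 119278424 to 119279086), a processed pseudogene.

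These genes had low ventral counts. Tmed2 had 1.38, 0.841, 0.652, 0.973 and 1.28 CPM in ventral and 28.8, 14.2, 17.6, 22.2 and 18 CPM in dorsal libraries (log2 4.28, SE 0.26; adjusted p = 1.18e-09). Sec61g had 2.22, 1.16, 0.761, 0.757 and 1.07 CPM in ventral and 25.8, 21.5, 13.7, 18.8 and 20.6 CPM in dorsal libraries (log2 4.06, SE 0.28). Sinhcaf had 1 count over the 5 ventral libraries and 390 over the 5 dorsal ones, a ratio of 230 after scaling to the totals (95% exact interval 41.1 to 9111, counting error only). Hist1h4m had 0.529, 0.841, 0.435, 0.324 and 0.32 CPM in ventral and 16, 35.5, 13.5, 12.1 and 15.5 CPM in dorsal libraries, and Hist1h4n 0.635, 0.421, 1.2, 0.324 and 0.213 and 20.5, 19.7, 12.2, 16 and 19.7 CPM, with log2 differences of 5.20 and 4.96. Of 38 clustered histone genes tested, 15 were higher in dorsal and 1 in ventral. Cd72, a B-cell surface protein gene with 53.3% of sampled words shared, had a log2 difference of 3.53.

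Mitochondrially encoded genes split within 1 transcription unit. mt-Co3 had 2.65, 3.58, 3.48, 4.22 and 3.31 CPM in ventral and 33.7, 37.1, 47.7, 58.1 and 84.2 CPM in dorsal libraries (log2 3.92, SE 0.25; adjusted p = 1.30e-09). mt-Nd1, a complex I subunit, had 12130.0, 10911, 12716, 13323 and 12763 CPM in ventral and 2150.3, 2876, 3271, 2379 and 2123 CPM in dorsal libraries (log2 -2.27, SE 0.11; adjusted p = 1.35e-10). Of 11 tested, 3 were higher in dorsal, mt-Co3, mt-Atp6 (3.29) and mt-Co2 (2.34), and 6 higher in ventral. No sampled word of mt-Nd1 was found in another gene (0%), against 98.3% of those of mt-Co3. mt-Nd2, also a complex I subunit, was higher in ventral, at medians of 4170 CPM in ventral and 1320 CPM in dorsal. It was among the genes removed for over 5% shared words. The part of shared sequence in this split was not tested.

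Housekeeping genes with many pseudogene copies also leaned toward dorsal, with 17 of 43 higher in dorsal and 1 in ventral. Gapdh, a glycolytic enzyme often used as a reference, had 545, 599, 631, 569 and 568 CPM in ventral and 1534, 1472, 1488, 1454 and 1372 CPM in dorsal libraries (log2 1.33, SE 0.056; adjusted p = 1.57e-11). Pgk1 and Eno1, also glycolytic enzymes, had log2 differences of 2.09 and 1.65, and Ubb, a ubiquitin gene, 1.62. Of 81 cytosolic ribosomal protein genes, 22 were higher in dorsal and 2 in ventral, with Rps10 at 2.36 and Rpl15 at 2.21, and of 93 nuclear-encoded respiratory chain genes 22 and 2, with Atp5l at 3.39. These lists serve as checks of the counting, and what their differences come from was not tested.

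The differences also moved with base composition and length. The median log2 difference went from -0.15 in the fifth of genes with the lowest GC content to 0.23 in the fifth with the highest, and from 0.20 in the fifth with the shortest transcripts to -0.15 in the fifth with the longest. With offsets for GC content and length, 7107 genes differed, and after removal of genes with over 5% shared words 5188 of 10163 did. The median of the medium spiny neuron list was 1.24 with the offsets, that of the imprinted genes -0.85, that of the cadherins -0.46 and that of the oligodendrocyte genes 0.86. Other medians moved by more than 1.5 times under the offsets. Those that moved away from 0 were neuropeptide precursors (-0.39 to -0.75), striosome genes (-0.10 to -0.15), glutamate receptors (0.03 to 0.20), cAMP and G protein signalling (0.10 to 0.19), potassium channels (0.18 to 0.29), glucocorticoid-responsive genes (-0.11 to -0.27), and cholinergic (0.23 to 0.36) and GABAergic interneuron genes (-0.23 to -0.36). Those that moved toward 0 were GABA-A and glycine receptors (-0.77 to -0.48), retinoic acid genes (0.32 to 0.17), D1 neuron genes (0.26 to 0.15), oligodendrocyte precursor genes (-0.33 to -0.22), pericyte genes (0.34 to 0.08), ribosomal proteins (0.24 to 0.04) and respiratory chain genes (0.39 to 0.23). The monoamine receptor median turned from 0.12 to -0.03 and that of immediate early genes from 0.03 to -0.13.

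**Figure D4:**
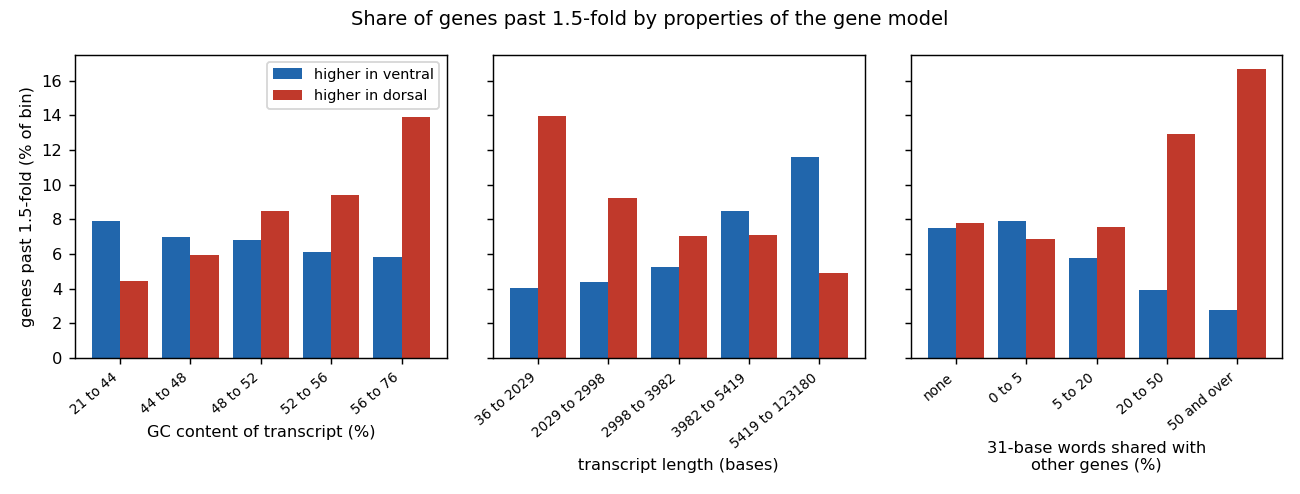
Percentage of tested genes past a fold of 1.5 toward ventral (blue) and dorsal (red), in 5 equal bins by GC content and by transcript length and in classes by the share of 31-base words found in other genes. The dorsal share is highest among short, GC-rich and shared-sequence genes, with 108 of 648 genes toward dorsal and 18 toward ventral where at least 50% of words are shared.

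The same comparison in oxycodone libraries, 5 dorsal and 5 ventral, shares no library with the saline one but has the same confounding of region and counting. A further oxycodone ventral library, replicate 6, was left out because it stands apart from its group, so these libraries were selected too. The comparison called 6900 of 14519 genes (47.5%), and 6785 of 14375 with that replicate kept. Of the 7227 genes that differed in saline libraries, 5712 also differed in the same direction in oxycodone libraries and 2 in the opposite one, which is 79.0% of the saline calls and 82.8% of the oxycodone calls. Of the 2167 past a fold of 1.5, 2052 differed in the same direction and 0 in the opposite one by edgeR at an adjusted p under 0.05. Rasgrp2 had a log2 difference of 2.20 in oxycodone libraries, Drd1 1.39, Oprm1 -1.39, Oprd1 1.48, Peg10 -2.30 and Mbp 1.31. Not every described gene repeated. Drd2 had 0.007 and Tac1 0.07 in oxycodone libraries. Pomc had 0.61 (edgeR adjusted p = 0.293) and Lhx8 -1.01 (edgeR adjusted p = 0.0956). Ttr had 7.51 and Trhr -5.32. The difference of the regional contrast between treatments was tested in 1 fit of 20 libraries and 14891 genes. The edgeR test found 0 genes at an adjusted p under 0.05 (percent called 0), and 611 (4.1%) at an unadjusted p under 0.05. By the number of tests alone, 744.55 would be under 0.05. DESeq2 found 0 and 685. The lowest adjusted p was 0.297, and the gene with the lowest unadjusted p was Htr1f, a serotonin receptor, whose contrast was lower in oxycodone than in saline libraries by a log2 difference of -1.71 (SE 0.36). Robo3 (-1.34), Dmtn (-0.47), Rgs4 (-0.56), Gpr149 (0.95) and Ephx4 (-0.63) followed, at adjusted p values of 0.297 to 0.341.

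**Figure D5:**
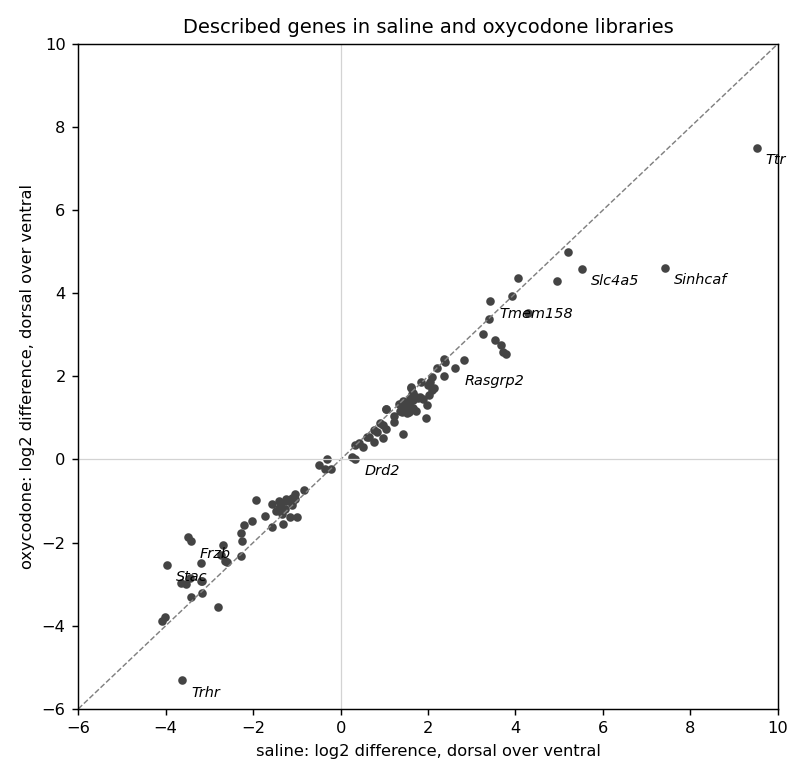
Log2 difference, dorsal over ventral, of the described genes in saline libraries (horizontal) and in oxycodone libraries (vertical), with the dashed line marking equal values. Points follow the line, and Ttr (9.52 and 7.51), Sinhcaf and Trhr (-3.62 and -5.32) are the 3 points farthest from it.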

How the data were processed

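The authors deposited raw counts per Ensembl gene in 1 table of 23119 genes. The submitters' processing notes name CASAVA 1.8.2, STAR 2.3 and featureCounts, and the builds mm10, GRCm38 and mm9, with no role for each. The annotation, strand setting, treatment of read pairs and of multiply mapped reads are not given in the sources used here. Symbols, coordinates and sequences came from GENCODE M21 on GRCm38, which matched 22282 genes.

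Saline dorsal replicates 1 to 5 were compared with saline ventral replicates 1 to 5 by edgeR 4.0.16 (R 4.3.3; filterByExpr, TMM, robust quasi-likelihood test, Benjamini-Hochberg threshold 0.05), and by its test against a fold of 1.5. Fold changes and standard errors come from this fit, and the code was tested on simulated data. CPM are counts scaled by TMM over these 10 libraries (ventral replicate 6: over 11). For genes of the lists that chose the library left out, p-values come from the fit with replicate 6 kept. Shared sequence was the share of 60 sampled 31-base words per gene found in other genes. A count of 3 corresponds to 0.137 to 0.327 CPM. Replicate libraries differed by more than sampling noise (lowest chi-square per degree of freedom 2.88). Libraries with the same title number in both regions did not deviate together, which does not show whether they share an animal.

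Members, gene lists and rules were chosen with earlier results of these data known. Named genes are the 12 largest differences each way (5 CPM or more, groups apart), up to 3 members per list with the lowest p, and 13 striatal and opioid genes, of which a subset is printed and some are not reported here; list members given only by a log2 difference were chosen after their values were seen, as were Pnoc and Slc17a7. Alternatives used DESeq2 1.42.0 and limma 3.58.1.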

Additional observations from a re-analysis of the deposited data

Results flagged for a closer look

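In 19 of 248 groups of 5 libraries checked (7.66%), 1 library stood apart from the other 4 by a gap of more than 0.71 of the group's range, where chance marks about 1 in 20 such groups. Values are CPM. Dorsal replicate 2 was high for Chrm4 (146, next 118), Egr1 (48.3, next 33.2) and Hist1h4m (35.5, next 16.0), and low for Gabra4 (193, next 247), Rarb (133, next 156) and Rxrg (169, next 208). Dorsal replicate 4 was high for the CART peptide precursor Cartpt (21.4, next 3.86) and for Trhr (5.77, next 0.723), and without it both genes were further below ventral. Dorsal replicate 3 was high for Ebf1 (26.1, next 20.3), and dorsal replicate 5 was low for Rpl15 (117, next 138). Ventral replicate 1 was high for Ebf1 (12.8, next 9.71), Npy2r (15.7, next 11.4) and Sec61g (2.22, next 1.16), and low for Grin3a (53.8, next 71.1). Ventral replicate 2 was high for Cux2 (69.0, next 53.9). Ventral replicate 4 was high for Coch (13.2, next 12.0), and ventral replicate 5 for the choroid plexus genes Folr1 (0.213, next 0.109) and Tmem72 (0.640, next 0.216). Sinhcaf was detected in ventral replicate 3 (0.109, which is 1 count) and in no other of these ventral libraries.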

How the results depend on the processing

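Against 7227 genes in saline libraries, the other scalings, filters, tools and library choices called between 5188 (genes with shared sequence removed, 10163 tested) and 7857 (limma-voom), and leaving out 1 library each gave 6483 to 7471. The test against a fold of 1.5 called 2167, 1207 higher in dorsal and 960 in ventral, and that against a fold of 2, added after seeing the data, 685, 412 and 273. The title number as a replicate block gave 5852 genes of 15130 tested. On the same libraries without it, where the filter kept a different number of genes, 6484 of 14499 were called. Deviations of same-numbered libraries correlated at -0.055 to 0.034 over 5 pairs. Absence of correlation in so few pairs cannot show whether the numbers pair animals. Scaling moved the median of all genes between -0.01 and 0.02 and the dorsal share of calls between 50.9% and 53.8%. Of 4025 values of 124 named genes under the alternatives, 3947 kept direction and side of the threshold, 77 (in 39 genes) lost the call, 1 (Pdyn) gained it and 0 reversed. These counts include genes of the lists that chose the library left out, for which calls without that library are a description only. Tac1 is one of them. Its log2 difference lay between 0.20 and 0.32 with 1 library left out, and with ventral replicate 6 kept its edgeR adjusted p was 0.484. Tmem72 moved from 4.93 to 5.56 without ventral replicate 5. Oxycodone libraries gave 6047 to 6863 genes with 1 library left out and 6785 with ventral replicate 6 kept. The difference between treatments gave 0 genes by edgeR or DESeq2 in each alternative run, with 611 and 685 at an unadjusted p under 0.05. No alternative separates region from the way of counting. Totals of 1 to 12 counts over the 5 ventral libraries limit Sinhcaf, Folr1, Slc4a5 and Tmem72.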
